A study of Mus musculus with 4 samples.

Results

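The 10 genes described here, *Lif*, *Il6*, *Lifr*, *Il6st*, *Il6ra*, *Osmr*, *Jak1*, *Jak2*, *Stat3* and *Socs3*, are a pathway list given by gene name, without a threshold on measured values, and the list was drawn up with earlier results of these data known. They are 10 of the 24637 genes in the deposited table, and all 10 were found in it. Messenger RNA had been sequenced in 4 libraries of mouse embryonic stem cell (ESC) lines that were differentiated towards cardiomyocytes, first for 5 days as embryoid bodies, the free-floating aggregates in which ESCs differentiate, and then for 9 days on gelatin-coated plates. A group of 2 WT libraries (Taf4+/+) was compared with 2 libraries labelled *Taf4a*-/-, whose gene encodes a subunit of the general transcription factor TFIID. The lines, 2 independent ones of each genotype, were isolated from blastocysts of heterozygous crosses of C57Bl6J mice, and the null allele lacks exons 11 and 12 of *Taf4a*. The lines of both genotypes had been kept on inactivated mouse embryonic fibroblast feeders in medium with LIF before differentiation. The sources used here do not say which line each library came from, so p-values measure only the spread between these libraries.

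LIF, interleukin 6 and oncostatin M belong to one cytokine family and share the signalling receptor gp130, which is encoded by *Il6st*. LIF binds gp130 paired with the LIF receptor, interleukin 6 first binds the receptor chain encoded by *Il6ra*, and mouse oncostatin M acts mainly through gp130 paired with the product of *Osmr*. The Janus kinases bound to these receptors phosphorylate Stat3, which enters the nucleus and activates genes, among them *Socs3*, whose product binds gp130 and the kinases and limits the signal. In mouse ESC culture LIF holds cells in self-renewal through Stat3, and in the heart the gp130 receptors are known for survival and hypertrophy signals. Phosphorylation was not measured in these libraries, so the values below are RNA levels only.

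Gene-level RNA of the targeted gene was higher, not lower, in the libraries labelled *Taf4a*-/-. Paired values are given as replicate 1 and replicate 2 throughout, with those labelled *Taf4a*-/- after WT. *Taf4a* stood at 889 and 678 normalized counts in WT, against 1722 and 1799 in those labelled *Taf4a*-/- (log2 fold change 1.18, standard error 0.16, adjusted p = 0.00569 from limma). Gene-level counts do not separate the deleted exons, so RNA that lacks them is counted too. In the paper, immunostaining found no Taf4 protein in undifferentiated *Taf4a*-/- ESCs. Every direction below is that of the labels. A normalized count is a read count divided by the size factor of its library, and 21732746 to 27733034 reads per library had been counted on genes. A value of 3 reads, the limit that a count of 0 allows, corresponded to 2.63 to 3.32 normalized counts, for counting error only. The 16926 genes whose mean reached 10 normalized counts were tested with limma on log2(normalized counts + 1). Changes of low genes are understated on this scale, and a gene was called at an adjusted p-value under 0.05. The smallest two-sided p of an exact permutation test with 2 libraries against 2 is 0.333, so calls rest on the spread shared across genes. Cell type markers separated the genotypes widely. Of 10 pluripotent cell markers 9 rose and 0 fell, with summed levels of 1815 to 5232 normalized counts in WT and 16518 to 18856 in the libraries labelled *Taf4a*-/-. All 12 macrophage markers fell, from summed levels of 11649 to 13876 to levels of 193 to 241, and *C1qa* was at 0 in both libraries labelled *Taf4a*-/-. Of 10 cardiomyocyte markers 9 fell (24172 to 27303 against 2278 to 2639 in sum), of 10 fibroblast and mesenchyme markers 8 fell (442980 to 612447 against 54666 to 66166), and all 8 visceral endoderm and liver markers fell (65905 to 82115 against 765 to 995, with *Alb* at 0 in both libraries labelled *Taf4a*-/-). Of 8 endothelial markers, which summed to 7696 to 11786 in WT and 6058 to 10269 in the others, 0 were called by limma, with 0 higher and 2 lower at an unadjusted p under 0.05 and 1 lower by limma's voom. The part of these markers in the values of the pathway genes was not tested.

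Promoter windows are shown for *Stat3*, *Il6ra* and *Osmr*, and for *Socs3*, a target of Stat3. *Stat3*, *Il6ra* and *Osmr* were lower in both libraries labelled *Taf4a*-/- than in both WT libraries, with mean ratios of 2.13 to 5.17. Each stretch runs 5′ to 3′ from 250 bases before to 20 bases after the RefSeq start, with the matched motif letters in capitals, and all lie on the minus strand of NCBIM37. Those of *Stat3*, *Il6ra*, *Osmr* and *Socs3* are chr11:100800835-100801104, chr3:89717099-89717368, chr15:6824294-6824563 and chr11:117830661-117830930.
Stat3: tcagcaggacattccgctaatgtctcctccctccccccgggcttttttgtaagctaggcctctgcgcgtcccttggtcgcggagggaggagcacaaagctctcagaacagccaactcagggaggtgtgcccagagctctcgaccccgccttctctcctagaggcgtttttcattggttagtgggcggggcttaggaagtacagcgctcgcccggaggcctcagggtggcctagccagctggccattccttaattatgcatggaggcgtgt
Il6ra: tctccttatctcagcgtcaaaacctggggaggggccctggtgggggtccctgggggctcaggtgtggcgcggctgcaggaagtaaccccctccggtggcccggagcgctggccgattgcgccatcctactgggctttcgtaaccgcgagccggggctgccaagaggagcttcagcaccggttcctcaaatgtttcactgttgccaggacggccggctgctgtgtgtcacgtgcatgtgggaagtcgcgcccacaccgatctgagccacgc
Osmr: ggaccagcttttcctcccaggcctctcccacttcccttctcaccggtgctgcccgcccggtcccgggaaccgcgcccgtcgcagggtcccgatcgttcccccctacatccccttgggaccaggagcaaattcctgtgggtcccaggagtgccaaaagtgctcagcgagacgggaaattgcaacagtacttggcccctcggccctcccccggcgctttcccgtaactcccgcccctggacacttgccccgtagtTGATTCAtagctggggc
Socs3: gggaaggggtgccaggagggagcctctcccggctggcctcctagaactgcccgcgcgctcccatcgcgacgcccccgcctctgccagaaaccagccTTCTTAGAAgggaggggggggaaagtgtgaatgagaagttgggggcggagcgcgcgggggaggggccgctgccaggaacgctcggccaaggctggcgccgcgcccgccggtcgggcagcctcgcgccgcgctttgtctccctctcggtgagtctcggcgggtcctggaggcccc

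The letters TTCNNNGAA of a STAT site, TTGNNCAA of a C/EBP site, TGANTCA of an AP-1 site and TATAAA of a TATA box were searched on both strands of windows from 250 bases before to 50 bases after each start. RefSeq gave 11 such windows for the 10 genes, with 2 starts for *Lifr*, in a table on GRCm38.p6, and each window was found exactly once in NCBIM37. *Socs3* alone among the 10 genes held a STAT match, TTCTTAGAA from base 97 of its window, and 8.30% of all 32851 promoter windows held one. The AP-1 letters were found in *Osmr* from base 254, in *Lif* from base 23 and in *Il6* from base 2, beside 7.81% of all windows. *Il6* also held the C/EBP letters, TTGTGCAA, from base 123, which 6.40% of all windows did. The TATA letters were in none of the 11 windows and in 13.6% of all windows. The windows of *Stat3*, *Il6ra*, *Il6st*, *Jak1*, *Jak2* and *Lifr* held none of these letters. The *Il6st* window (chr13:113254028-113254327) lies upstream of the gene start in the annotation used for its counts, at 113265216, which was not searched. GC content ran from 44.0% for *Il6* to 81.3% for one start of *Lifr*, with a median of 52.7% over all windows. A match describes letters in a window, and binding was not measured here.

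Of the 10 genes, 9 passed the filter and were tested, and *Il6* did not. *Il6ra* and *Stat3* fell in the libraries labelled *Taf4a*-/-, 2 of 9 tested or 22.2%, where 17.3% of all tested genes were lower. By limma 0 of the 9 rose, beside 11.3% of all tested genes; at an unadjusted p under 0.05, 1 was higher (*Jak1*) and 3 were lower (*Il6ra*, *Stat3* and *Osmr*), and voom called 0 higher and 2 lower. Over all tested genes 1906 were higher and 2928 lower, a split of 2676 and 2448 under quantile normalization. The median log2 fold change of the 9 genes was -0.08, and that of all tested genes was -0.01. Without a test, *Lif*, *Il6ra*, *Osmr* and *Stat3* had both libraries labelled *Taf4a*-/- below both WT libraries, a separation seen in 36.6% of all tested genes. *Il6st* and *Jak1* had both above, as did 34.5% of all tested genes.

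**Figure D1:**
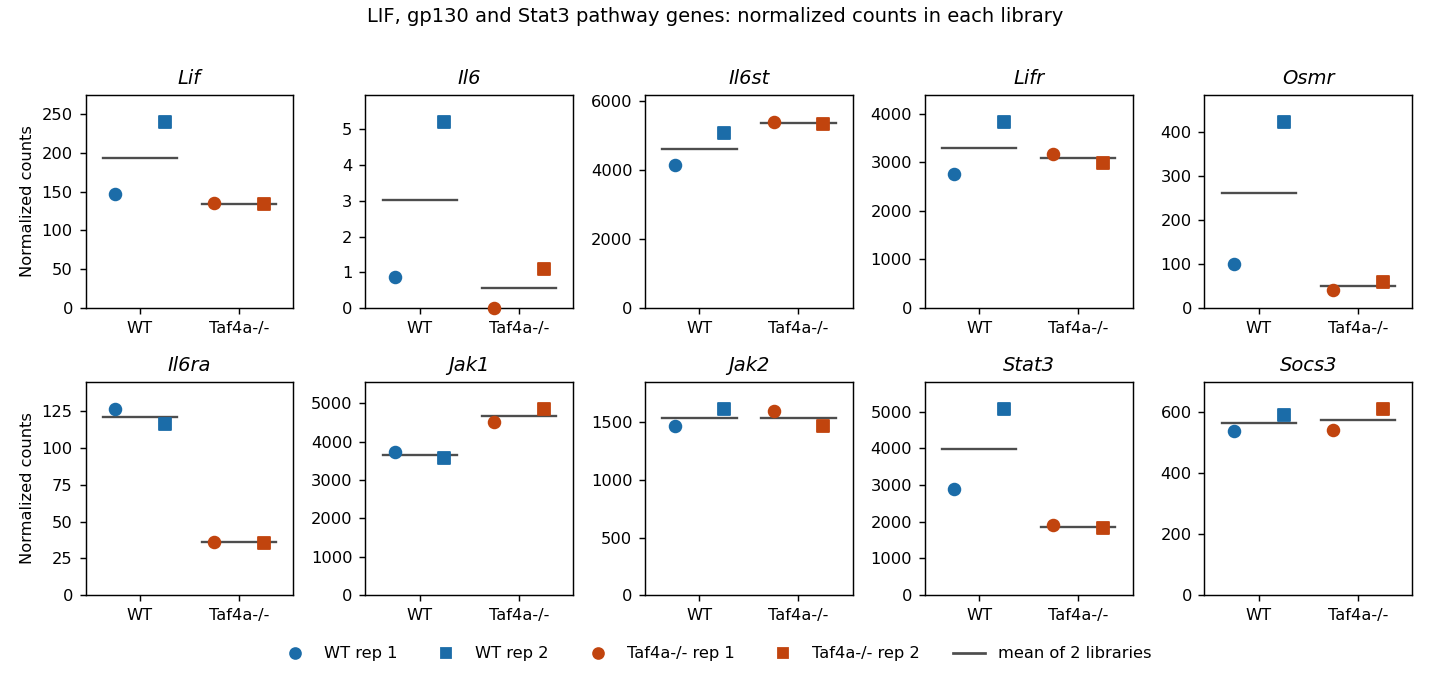
Normalized counts of the 10 pathway genes, 1 point per library on the vertical axis and the mean as a bar, for WT replicates 1 and 2 and the libraries labelled *Taf4a*-/- replicates 1 and 2. *Il6ra*, *Stat3*, *Osmr* and *Lif* are lower in both libraries labelled *Taf4a*-/- than in both WT libraries, as are 36.6% of all tested genes. *Osmr* reaches 422 in WT replicate 2 and 99.1 in WT replicate 1.

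The ligand genes differed in depth, with 121 to 230 reads per library for *Lif* and at most 5 for *Il6*. *Lif* (ENSMUSG00000034394, chr11:4157560-4172517, plus strand), the cytokine that is added to ESC medium, had 147 and 239 normalized counts in WT, against 135 and 134 in those labelled *Taf4a*-/-. The genotypes did not overlap, but WT replicate 1 lay close to the other genotype, and the WT libraries differed 1.62-fold from each other. The means were 193 ± 64.8 and 134 ± 0.896 (SD, n = 2 each), and the log2 fold change of -0.48 (standard error 0.29, 95% interval -1.18 to 0.22) did not pass the test (adjusted p = 0.254 from limma). That interval covers a fall of more than 2-fold as well as a small rise. *Il6* (ENSMUSG00000025746, chr5:30339701-30346508, plus strand), which encodes the inflammatory cytokine interleukin 6, was counted in 1 and 5 reads in WT and in 0 and 1 reads in the other libraries. Only WT replicate 2 was above the floor of 3 reads. The ratio of WT to *Taf4a*-/- reads per size factor was 5.49 with an exact 95% counting interval of 0.667 to 253, so no difference was detectable at this depth.

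Among the receptor genes, the shared chain and the LIF receptor were abundant, and neither was called. *Il6st* (ENSMUSG00000021756, chr13:113265216-113297068, plus strand), which encodes gp130, had 4137 and 5082 normalized counts in WT, against 5383 and 5339 in those labelled *Taf4a*-/-. Both of the latter lay above both WT libraries, and WT replicate 2 was nearer to them than to WT replicate 1. Its log2 fold change was 0.23 (standard error 0.14, interval -0.11 to 0.56, adjusted p = 0.257 from limma). *Lifr* (ENSMUSG00000054263, chr15:7079559-7147489, plus strand), which encodes the LIF-binding partner of gp130, had 2762 and 3821 normalized counts in WT, against 3175 and 2989 in the others. The libraries labelled *Taf4a*-/- fell between the WT libraries, with means of 3291 ± 749 in WT and 3082 ± 131 in the others (SD, n = 2 each). The log2 fold change of *Lifr* was -0.08 (standard error 0.17, interval -0.50 to 0.34, adjusted p = 0.763 from limma), and it was 0.16 without WT replicate 2.

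*Il6ra* (ENSMUSG00000027947, chr3:89673246-89717084, minus strand), which encodes the chain that binds interleukin 6, had 126 and 116 normalized counts in WT, against 36.2 and 35.4 in those labelled *Taf4a*-/-. Replicates lay close together within each genotype and far apart between genotypes. These values came from 144, 112, 37 and 32 reads. *Il6ra* fell from 121 ± 6.98 to 35.8 ± 0.586 (SD, n = 2 each), so WT was 3.39-fold higher, and the log2 fold change was -1.73 (standard error 0.28, interval -2.42 to -1.05, adjusted p = 0.00930 from limma). Without WT replicate 2 the log2 fold change was -1.79 and the adjusted p was 0.0520, and with each of the other libraries left out the call was kept. In RNA from a whole culture, fewer cells that express a gene and less RNA per cell cannot be told apart. Macrophages and liver cells carry the interleukin 6 receptor. All 12 macrophage markers and all 8 markers of the joint visceral endoderm and liver list were lower in the same libraries. So were 9 of 10 cardiomyocyte markers and 8 of 10 fibroblast and mesenchyme markers. The part of these markers in the *Il6ra* values was not tested.

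*Osmr* (ENSMUSG00000022146, chr15:6763577-6824313, minus strand), which encodes the oncostatin M receptor, stood at 99.1 and 422 normalized counts in WT. The libraries labelled *Taf4a*-/- had 42.1 and 58.6. Both of these were below both WT libraries, and WT replicate 2 stood 4.26-fold above WT replicate 1, a gap larger than that of all but 0.892% of tested genes. The means were 260.5 ± 228 and 50.4 ± 11.7 (SD, n = 2 each), a ratio of WT to *Taf4a*-/- of 5.17. The log2 fold change of -2.02 (standard error 0.65, interval -3.61 to -0.43, not adjusted for the number of genes) did not pass the test (adjusted p = 0.0636 from limma). This value rested on the WT libraries, being -3.06 without WT replicate 1 and -0.98 without WT replicate 2. It was -1.79 without *Taf4a*-/- replicate 1 and -2.26 without *Taf4a*-/- replicate 2. With the replicate number as a block it passed (adjusted p = 0.0232 from limma), though these numbers are only names. It did not pass without the variance trend (adjusted p = 0.141 from limma), with quantile normalization (adjusted p = 0.0977 from limma) or by voom (adjusted p = 0.129).

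**Figure D2:**
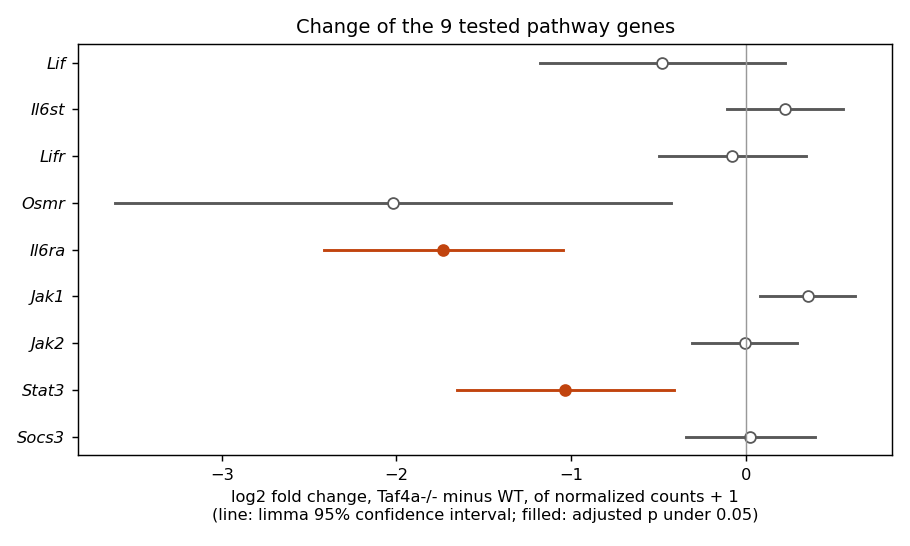
Log2 fold change of the 9 tested pathway genes on the horizontal axis, libraries labelled *Taf4a*-/- minus WT, on log2(normalized counts + 1). Lines are 95% limma intervals, not adjusted for the number of genes, and filled points passed at an adjusted p under 0.05, which *Il6ra* at -1.73 and *Stat3* at -1.03 did.

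The kinase genes stayed within a narrow range. *Jak1* (ENSMUSG00000028530, chr4:100824972-100937887, minus strand), whose product is the main kinase of gp130 receptors, had 3722 and 3582 normalized counts in WT, against 4516 and 4838 in those labelled *Taf4a*-/-. The genotypes did not overlap, and the mean of the latter was 1.28-fold higher. The log2 fold change of 0.36 (standard error 0.11, interval 0.08 to 0.63) did not pass the test (adjusted p = 0.0587 from limma). It passed with the libraries scaled to equal totals (log2 fold change 0.42, adjusted p = 0.0441 from limma). It did not pass with the replicate number as a block (adjusted p = 0.112 from limma) or without the variance trend (adjusted p = 0.147 from limma). Over all alternatives the log2 fold change of *Jak1* ran from 0.31 to 0.42. In the annotation, 4 exonic bases of *Jak1* overlap *Raver2* on the other strand, which this kit does not separate. *Jak2* (ENSMUSG00000024789, chr19:29326318-29387570, plus strand), a kinase of the same receptors and of the erythropoietin and growth hormone receptors, had 1468 and 1613 normalized counts in WT, against 1602 and 1467 in the others. Its genotypes overlapped and differed by -0.01 on the log2 scale (standard error 0.12, interval -0.31 to 0.30, adjusted p = 0.976 from limma), a value whose sign turned under 4 of the alternatives.

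*Stat3* (ENSMUSG00000004040, chr11:100746412-100800854, minus strand), the transcription factor on which these receptors converge, had 2887 and 5062 normalized counts in WT, against 1916 and 1823 in those labelled *Taf4a*-/-. The latter were close to each other and below both WT libraries, which differed 1.75-fold. *Stat3* fell from 3975 ± 1538 to 1869 ± 65.8, a 2.13-fold higher mean in WT (SD, n = 2 each), and the log2 fold change was -1.03 (standard error 0.26, interval -1.65 to -0.41, adjusted p = 0.0307 from limma). Its size depended on the WT library used, with -1.44 without WT replicate 1 and -0.63 without WT replicate 2, both of which passed the test. It did not pass without *Taf4a*-/- replicate 2 (log2 fold change -0.996, adjusted p = 0.0518) or without the variance trend (adjusted p = 0.0996). In the annotation, 72 exonic bases of *Stat3* overlap *Stat5a* on the other strand, and *Stat5a* had 127 to 298 normalized counts.

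*Socs3* (ENSMUSG00000053113, chr11:117827393-117831361, minus strand), the feedback inhibitor and the gene with the STAT match shown above, had 539 and 590.2 normalized counts in WT, against 541 and 609 in those labelled *Taf4a*-/-. The genotypes overlapped, and replicate 2 was the higher library in each. The means were 565 ± 36.1 and 575 ± 48.1 (SD, n = 2 each), and the log2 fold change was 0.03 (standard error 0.15, interval -0.34 to 0.39, adjusted p = 0.913 from limma). That interval does not include a change of the size measured for *Stat3*, a comparison of intervals and not a test of the difference between the genes.

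Levels of different genes were compared as normalized counts per kilobase of annotated exon. On this scale *Il6st* was the highest of the 10 genes in every library, with 795 and 976 in WT, then 1034 and 1025 in those labelled *Taf4a*-/-. *Jak1* followed at 515, 496, 625 and 669 in the same order, except in WT replicate 2, where *Stat3* at 531 was higher. *Stat3* (303, 531, 201 and 191), *Lifr* (267, 370, 307 and 289) and *Jak2* (292, 321, 318 and 292) overlapped in WT, and *Stat3* was the lowest of these in both libraries labelled *Taf4a*-/-. There *Stat3* lay beside *Socs3*, which had 187, 204, 187 and 211. *Osmr*, *Il6ra* and *Lif* were lower, at 20.5, 87.2, 8.71 and 12.1 for *Osmr*, 33.9, 54.9, 31.1 and 30.8 for *Lif*, and 37.8, 34.8, 10.8 and 10.6 for *Il6ra*. In WT these overlapped, and in the libraries labelled *Taf4a*-/- *Lif* was the highest of them. *Il6* had 4.78 or less in every library. *Stat3* has 14 annotated transcripts and a union exon length of 9527 bases, so its level per kilobase depends on which transcripts were made. Other genes with several transcripts, such as *Lifr* (3, over 10330 bases) and *Jak1* (8, over 7227 bases), share this limit. So do the ratios below that hold such genes.

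**Figure D3:**
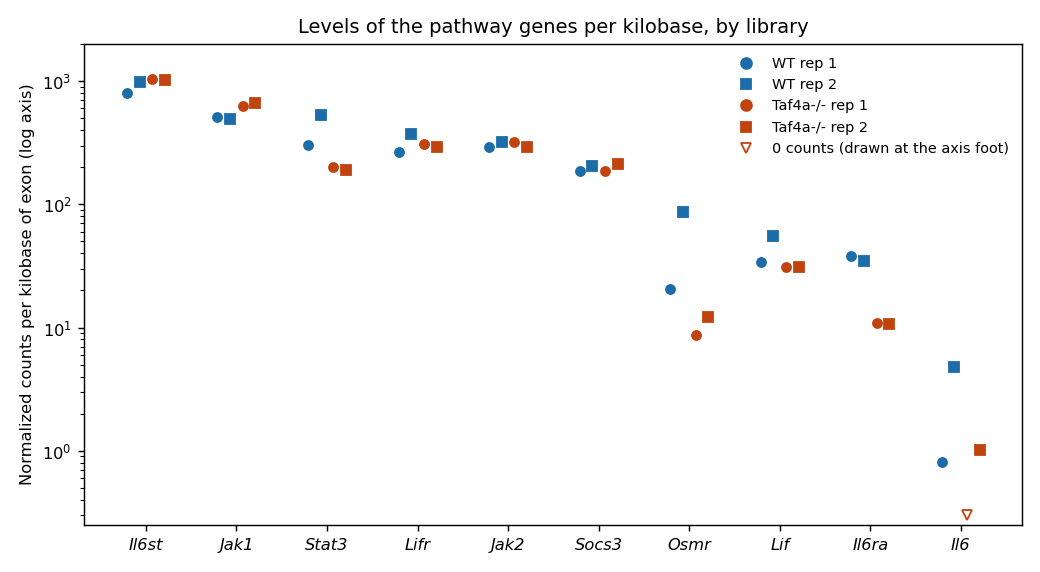
Level of the 10 pathway genes in normalized counts per kilobase of annotated exon, on a log axis, with 1 point per library and a triangle at the axis foot for a count of 0. *Il6st* is the highest in every library, at 795 to 1034, and *Osmr*, *Lif* and *Il6ra* lie between 8.71 and 87.2.

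Ratios of these per-kilobase levels within a library describe the makeup of the receptor RNA, with no test. The level of *Il6st* was 21.04 and 28.04 times that of *Il6ra* in WT, then 95.4 and 96.8 times in those labelled *Taf4a*-/-. *Lifr* exceeded *Il6ra* 7.08- and 10.6-fold in WT and 28.4- and 27.3-fold in the others, and the genotypes were well apart in both ratios. *Lifr* exceeded *Osmr* 13.0- and 4.24-fold in WT and 35.3- and 23.9-fold in the others. By contrast *Il6st* exceeded *Lifr* by a similar 2.97- and 2.64-fold in WT and 3.36- and 3.54-fold in the others. The level of *Stat3* was 1.62 and 2.60 times that of *Socs3* in WT and 1.07 and 0.908 times in the others, and relative to *Jak1* it was 0.588 and 1.07 against 0.322 and 0.286. *Jak1* was 1.76 and 1.55 times *Jak2* in WT and 1.96 and 2.30 times in the others.

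Some of these genes also differed between the WT libraries. WT replicate 2 was higher than WT replicate 1 in 7 of the 9 tested genes, a larger share than the 51.8% of all tested genes. The gap was 4.26-fold for *Osmr*, 1.75-fold for *Stat3*, 1.62-fold for *Lif* and 1.38-fold for *Lifr*, and 10.7% of all tested genes had a larger WT gap than *Stat3*. *Il6ra*, at 0.922-fold, and *Jak1*, at 0.962-fold, went the other way. Their WT gaps were small, with larger ones in 75.4% and 88.1% of all tested genes. Those of *Socs3* and *Jak2* were also small, with larger ones in 72.9% and 71.9%. The median absolute log2 gap over all tested genes was 0.26 between the WT libraries and 0.16 between the libraries labelled *Taf4a*-/-. The cell type markers also differed between the WT libraries. Pluripotent cell markers summed to 5232 in WT replicate 1 and 1815 in WT replicate 2. In the same order, endothelial markers had 11786 and 7696, and visceral endoderm and liver markers 82115 and 65905. The fibroblast and mesenchyme markers had 442980 and 612447, the macrophage markers 11649 and 13876, and the cardiomyocyte markers 24172 and 27303. The part of these markers in the WT gaps was not tested.

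The remaining genes of the pathway were taken from named lists, whose counts stand beside 11.3% of all tested genes higher and 17.3% lower. Of 9 other cytokines of the family, *Il31* was not analysed here, 4 passed the filter, 0 rose and 1 fell (median log2 fold change -0.51), and the counts were 0 and 1 both at an unadjusted p under 0.05 and by voom. *Ebi3*, the shared subunit of interleukins 27 and 35, had 58.7 and 68.6 normalized counts in WT, against 2.94 and 4.42 in those labelled *Taf4a*-/- (log2 fold change -3.80, standard error 0.44, adjusted p = 0.00373 from limma). *Osm*, the ligand of the *Osmr* product, had 1.75 and 3.12 in WT and 7.83 and 7.74 in the others and did not pass the filter. *Cntf*, *Ctf2* and *Il27* did not pass it either, while *Ctf1*, *Clcf1* and *Il11* were tested and not called.

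Of 6 other receptors of the family, 5 passed the filter, 1 rose and 2 fell (median -1.15), with the same counts at an unadjusted p under 0.05 and by voom, where 11.3% of all tested genes rose and 17.3% fell. *Il31ra*, whose product pairs with the *Osmr* product to bind interleukin 31, had 13.2 and 11.4 normalized counts in WT, against 85.2 and 70.8 in those labelled *Taf4a*-/-. It rose 6.34-fold (log2 fold change 2.57, standard error 0.36, adjusted p = 0.00604 from limma). Per kilobase, *Il31ra* was 0.175 and 0.0357 times the level of *Osmr* in WT and 2.67 and 1.59 times in the others, so the order of these partner genes was opposite in the 2 genotypes. *Il11ra1*, which encodes the interleukin 11 receptor, fell from 724 and 917 to 354 and 380.5 normalized counts (log2 fold change -1.15, standard error 0.17, adjusted p = 0.00746 from limma). *Csf3r*, the receptor of the granulocyte growth factor G-CSF, had 65.8 and 65.5 in WT and 0.979 and 2.21 in the others, from 138 reads in all against 3. The WT to *Taf4a*-/- ratio of its reads was 42.1 with an exact 95% counting interval of 14.1 to 207 (adjusted p = 0.00288 from limma). *Cntfr*, which encodes the receptor of ciliary neurotrophic factor, had 457, 493, 408 and 366 per kilobase, and was not called (log2 fold change -0.30, standard error 0.13, adjusted p = 0.132).

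**Figure D4:**
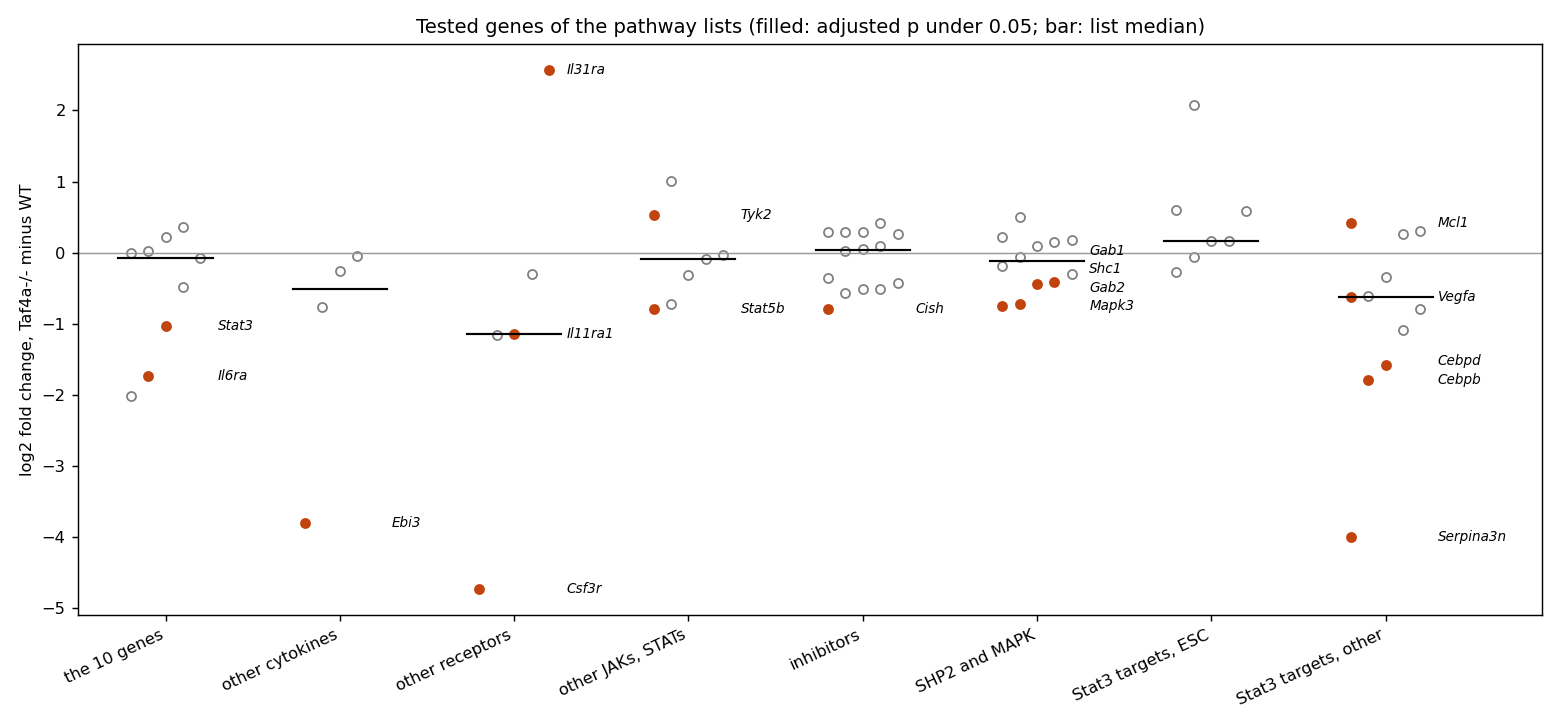
Log2 fold change, libraries labelled *Taf4a*-/- minus WT, of each tested gene (points) in the 10 pathway genes and in 7 lists of other pathway genes, with the list median as a bar and genes that passed at an adjusted p under 0.05 filled and named. The medians run from -1.15 for the other receptors to 0.17 for Stat3 targets of ESCs, a list in which 0 genes passed by limma, with 2 higher and 0 lower at an unadjusted p under 0.05 and 0 by voom.

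Among 7 other Janus kinases and STATs, 1 rose and 1 fell (median -0.09), by voom too, shares near the 11.3% and 17.3% of all tested genes, and at an unadjusted p under 0.05 2 were higher and 2 lower. *Tyk2*, a kinase that also binds gp130, had 707 and 887 normalized counts in WT, against 1179 and 1117 in those labelled *Taf4a*-/- (log2 fold change 0.53, standard error 0.15, adjusted p = 0.0473 from limma). *Stat5b*, a STAT of growth hormone and interleukin signals, fell from 1306 and 1201 to 766 and 687 (log2 fold change -0.79, adjusted p = 0.0107). Of 14 other inhibitors of the SOCS, PIAS and phosphatase families, 0 rose and 1 fell (median 0.04), by voom too, beside 11.3% and 17.3% of all tested genes, and at an unadjusted p under 0.05 2 were higher and 5 lower. The one that fell was *Cish*, a SOCS family gene that STAT5 induces, from 309 and 344 to 177 and 199 (log2 fold change -0.79, adjusted p = 0.0291).

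The branch from gp130 through the phosphatase SHP2 to the MAP kinases had 12 genes, of which 0 rose and 4 fell (median -0.12), by voom too, with 1 higher and 5 lower at an unadjusted p under 0.05, where 11.3% of all tested genes rose and 17.3% fell. *Mapk3*, the kinase Erk1, fell from 3310.5 and 2987 to 1865 and 1870.2 normalized counts (log2 fold change -0.75, standard error 0.12, adjusted p = 0.00797 from limma). The others were adaptor genes, *Gab2* with a log2 fold change of -0.73 (adjusted p = 0.0135), *Shc1* with -0.43 (adjusted p = 0.0447) and *Gab1* with -0.41 (adjusted p = 0.0372).

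Known targets of Stat3 were kept in separate lists for ESCs and for other cells. Of 8 targets in ESCs 7 passed the filter and by limma 0 were called (median 0.17), with 2 higher and 0 lower at an unadjusted p under 0.05 and 0 called by voom. *Tfcp2l1*, a self-renewal factor downstream of LIF, had 1534 and 2380.5 normalized counts in WT, against 1971 and 2314 in those labelled *Taf4a*-/- (log2 fold change 0.16, standard error 0.22, adjusted p = 0.613). *Klf4*, another of these factors, had 632 and 1133 in WT and 896 and 729.9 in the others (log2 fold change -0.07, standard error 0.28, adjusted p = 0.880). In both genes the genotypes overlapped. Both libraries labelled *Taf4a*-/- were above both WT libraries in *Pim1*, a survival kinase (831 and 597 in WT and 1048 and 1063 in the others, log2 fold change 0.58, adjusted p = 0.0595), and in *Myc*, a growth regulator (848 and 571 in WT and 1112 and 992 in the others, log2 fold change 0.59, adjusted p = 0.0807). The same held for *Gbx2*, a homeobox gene with few reads (25.42 and 3.12 in WT and 72.4 and 25.44 in the others, log2 fold change 2.08, adjusted p = 0.151), and 34.5% of all tested genes separated this way. *Klf5* and *Pim3* overlapped, with log2 fold changes of -0.27 and 0.17, and *Pramel7* did not pass the filter.

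Of 12 targets in other cells 11 passed the filter, 1 rose and 4 fell (median -0.62), by voom too, with 2 higher and 5 lower at an unadjusted p under 0.05, beside 11.3% and 17.3% of all tested genes. The acute phase gene *Serpina3n* fell from 76.3 and 160.0 to 3.92 and 8.85 normalized counts (log2 fold change -4.00, standard error 0.55, adjusted p = 0.00575 from limma). *Cebpb* and *Cebpd*, transcription factors of the acute phase response and of fat and macrophage cells, fell from 433 and 480.04 to 125 and 138 (log2 fold change -1.78, adjusted p = 0.00302) and from 172 and 204 to 64.6 and 59.7 (log2 fold change -1.58, adjusted p = 0.00872). *Vegfa*, a growth factor of blood vessels, had a log2 fold change of -0.62 (adjusted p = 0.0463). *Mcl1*, a survival gene of the Bcl2 family, was the one that rose, from 6266 and 6604 to 8440.2 and 8810.2 (log2 fold change 0.42, adjusted p = 0.0398). These targets also respond to other factors. Macrophage markers and the visceral endoderm and liver markers fell in the same libraries, as did most cardiomyocyte and fibroblast and mesenchyme markers. The part of these markers in the values was not tested.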

How the data were processed

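Messenger RNA of 4 libraries was prepared with a kit that does not mark strand. Per the labels, reads were processed with CASAVA 1.8, TopHat 1.3.3 and HTSeq 0.5.3p1 on mm9/NCBI37 and normalized with DESeq, which the paper names as DESeq 2; the annotation release is not given in the sources used here. The authors deposited normalized counts, which are reads divided by 1 size factor per library, and with this factor removed 100% of values were whole within 0.01 reads. The values were declared as normalized counts, and edgeR and DESeq2 were not used. Voom (limma), run on recovered reads, served as an alternative. No library was left out.

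The filter was a mean of at least 10, and the test was limma (version 3.58.1, R 4.3.3; lmFit and eBayes with trend) on log2(value + 1), two-sided, with Benjamini-Hochberg adjustment over all 16926 genes. The GENCODE annotation of NCBIM37 held all 24637 identifiers, with an identical symbol for 99.4%. *Hras* and *Tfcp2l1* were matched under the older symbols *Hras1* and *Tcfcp2l1*. Promoter sequences are from RefSeq. The 10 genes, the lists and the markers were chosen with earlier results of these data known. A pair of genes of the fixed lists is not reported here. All 10 genes are named, and from each list up to 4 called genes without overlap, by size of change. *Mcl1*, *Osm*, *Cntfr*, the other uncalled cytokines and the Stat3 targets of ESCs are named outside this rule, after their values were seen. The alternatives changed the pseudocount, the filter, the scaling, the threshold or the variance model, blocked on the replicate number, or left out 1 library at a time. Plots used matplotlib 3.10.9 in Python 3.11.15.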

Additional observations from a re-analysis of the deposited data

How the results depend on the processing

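Of the 9 tested pathway genes, *Il6ra*, *Stat3*, *Osmr* and *Lif* had negative and *Il6st* and *Jak1* positive log2 fold changes under every alternative run. Without the variance trend 856 genes were higher and 1741 lower, and of the pathway genes only *Il6ra*, 1, was lower. At an adjusted p under 0.01 the counts were 331 and 1119, again with 1 pathway gene lower. Leaving out each library gave 624 to 2476 genes higher and 1222 to 3038 lower, and 0 to 1 pathway genes higher and 1 to 3 lower. Libraries scaled to equal totals added *Jak1*, so that 1 was higher. Quantile normalization moved the all-gene median from -0.01 to 0.11 (log2) and gave 2676 higher and 2448 lower, against 1906 and 2928. The sign of *Jak2* turned, with log2 fold changes of 0.054 with equal totals, 0.023 with quantile normalization, and -0.073 to 0.062 without a library; that of *Socs3* ran from -0.059 to 0.11 and that of *Lifr* from -0.31 to 0.16 without a library. With the replicate number as a block, 1536 genes were higher and 2657 lower, and *Osmr* joined *Il6ra* and *Stat3* to make 3 lower. Same-numbered libraries correlated at 0.01 in their deviations, and the numbers are only names. Limma's voom on recovered reads, chosen after seeing the data, gave 1813 and 2753 genes and the same calls for the pathway genes. Count tests in edgeR and DESeq2 were not run, because the deposited values were declared as normalized counts, although whole reads could be recovered from them. The causes of these changes were not tested, except that leaving out a library leaves fewer samples. The depth limits *Il6*, which had at most 5 reads in a library.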

Other observations

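The genes around the 10 pathway genes were looked at after the data were seen, within 100 kilobases on NCBIM37. Of 31 tested neighbours 6 were higher (19.4%) and 5 lower (16.1%) in the libraries labelled *Taf4a*-/-, beside 11.3% and 17.3% of all tested genes. *Il31ra* lies 15949 bases from *Il6st* and rose (log2 fold change 2.57), as did *Ddx4* (1.92, adjusted p = 0.0169), a germ cell gene 91472 bases away, while *Il6st* itself was not called. *Stat5b*, 34373 bases from *Stat3*, and *Ptrf*, a caveolar coat gene 17192 bases away (log2 fold change -1.11, adjusted p = 0.0125), fell on the same side as *Stat3*. *She*, 10489 bases from *Il6ra*, fell too (log2 fold change -1.37, adjusted p = 0.0407), with 165 and 383 normalized counts in the libraries labelled *Taf4a*-/- replicates 1 and 2. On the other side of the test, *4632404H12Rik*, 96083 bases from *Il6ra*, rose (log2 fold change 1.57). *Rictor*, 13178 bases from *Osmr*, rose (0.41, adjusted p = 0.0425), and *Egflam*, 8630 bases from *Lifr*, fell (-1.32, adjusted p = 0.0110). The remaining called neighbours were *Ccdc157* near *Lif* (0.65) and *Pgs1* near *Socs3* (0.52), which rose, and *5033414D02Rik* near *Jak2* (-0.89), which fell. Neighbours share a region, and no relation between them was tested.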
